A study of Mus musculus with 46 samples.

Results

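The nuclear-encoded subunits of the mitochondrial respiratory chain and ATP synthase were examined in RNA-seq read counts from microglia, the macrophages that live in brain tissue, of mice. Members were taken by name from the count table: symbols without a hyphen that begin with Ndufa, Ndufb, Ndufc, Ndufs or Ndufv and a number, the 4 Sdh genes, and all symbols that begin with Uqcr, Cox4 to Cox8 or Atp5. The pattern matched 83 of the 54134 symbols, and 2 of these (Cox7b2 and Cox8c) had 0 counts in every library, which left 81 members: 35 of complex I, 4 of complex II, 8 of complex III, 18 of complex IV and 16 of complex V. Atp5s (coupling factor B) matched by name and is not a subunit, but is kept in the values of complex V. The low-count filter kept 76 of the 81, and the other 5 (Cox6b2, Cox7a1, Cox8b, Cox4i2 and Ndufa4l2) are described by level only.

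There were 46 libraries: 24 from 5xFAD mice (labelled AD) and 22 from wild-type (WT) mice. 5xFAD mice are used as a model of Alzheimer's disease, and their transgenes are driven by the Thy1 promoter mainly in neurons, not in microglia. The mice were fed a diet with HAMSAB, a high-amylose maize starch that carries acetate and butyrate, a zero fiber diet or a control diet. Both sexes were sampled on each diet, and the 6 diet-by-genotype groups held 8 libraries each except WT on zero fiber, which held 6 (4 female and 2 male). Age, time on the diet and the way the cells were isolated are not in the labels. Nothing there ties each library to a mouse of its own, so the p-values below measure the spread between libraries, which may be technical.

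The respiratory chain passes electrons from NADH (through complex I) and succinate (through complex II) to ubiquinone, on to cytochrome c through complex III and to oxygen through complex IV, while complexes I, III and IV pump protons that drive ATP synthase, complex V. Most subunits are encoded in the nucleus, made in the cytosol and imported, and a small core set is encoded by the mitochondrial genome, except in complex II, which is wholly nuclear. Microglia use oxidative phosphorylation when resting and can shift toward glycolysis on activation, and butyrate can be oxidised in mitochondria.

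Library totals lay between 783849 and 6950429 counts (median 2344837.5 over all libraries), apart from zero_fiber_AD_M replicate 2 with 52114 counts, of which 394 fell on members. In that library 11 of the 76 tested members had 0 counts, and in no other library did any. In zero_fiber_AD_F replicate 1, labelled female, Xist stood at 0.213 CPM (counts scaled by TMM-corrected library size) and the Y-linked Ddx3y at 142 CPM, values in the range of the male libraries. The complex sums of zero fiber AD mice are therefore also given without these 2 libraries. The same holds for the members' medians of HAMSAB against zero fiber in AD mice and of AD against WT on zero fiber. In zero_fiber_AD_F replicate 2 Ddx3y stood at 17.9 CPM, above the 6.66 CPM or less of the other 22 female libraries, with Xist at 842 CPM, and this library was kept. The 10 microglial markers summed to between 25711 and 42229 CPM in every library, against 2.55 to 30.6 CPM for neuronal, 155 to 382 CPM for astrocytic, 76.8 to 178 CPM for oligodendrocytic and 16.1 to 154 CPM for perivascular macrophage markers, and no gene of these lists was at 0 throughout. Choroid plexus markers summed to 20.5 to 312 CPM, endothelial markers to 15.5 to 122 CPM, and neutrophil and lymphocyte markers to 0 to 11.8 CPM. The summed level of the 5 erythroid markers had a median of 16.5 CPM in AD and 34.6 CPM in WT mice on HAMSAB, 132 CPM in AD and 121 CPM in WT mice on zero fiber, and 15.5 CPM in AD and 50.3 CPM in WT mice on control. Of the 4 erythroid markers that passed the filter, edgeR called 1 for HAMSAB against zero fiber in WT mice and 1 for zero fiber against control in AD mice, and 0 in the other 10 comparisons; DESeq2 called 2, both for zero fiber against control in AD mice. The part of blood RNA in the comparisons with zero fiber was not tested. In bulk RNA, fewer cells of a type and less RNA per cell cannot be told apart.

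Respiratory chain genes are known targets of the transcription factors NRF1 and GABP (an ETS factor) and of YY1, so their promoters were read for these motifs. RefSeq promoters (GRCm38.p6, 250 bases before to 50 after a start) were found for 65 of the 81 members, 70 promoters in all. The NRF1-type motif (GCGCA and GCGC separated by any single base), read on either strand, was in 18 of the 70 (25.7%), against 10.8% of the 10882 promoters of tested genes and 4.60% of all 32851. The YY1-type motif AAGATGGCG was in 10% of members' promoters, 3.35% of those of tested genes and 1.40% of all. The ETS-type motif CGGAAG was in 38.6%, 32.6% and 16.9% of the same sets, and CCAAT in 41.4%, 37.9% and 37.4%. The 250 bases upstream of the start are shown for Atp5h, Sdhd and Sdha, which were among the members of smallest p below, and for Cox6a1, one of the most abundant. Capitals mark NRF1-type matches and ETS-type matches (CGGAAG or its reverse complement), which do not overlap in these 4. The sequences run 5′ to 3′ on the gene's strand, which is the minus strand in each: Atp5h at chr11:115419920-115420169, Sdhd at chr9:50603850-50604099, Sdha at chr13:74350241-74350490 and Cox6a1 at chr5:115348959-115349208.
Atp5h: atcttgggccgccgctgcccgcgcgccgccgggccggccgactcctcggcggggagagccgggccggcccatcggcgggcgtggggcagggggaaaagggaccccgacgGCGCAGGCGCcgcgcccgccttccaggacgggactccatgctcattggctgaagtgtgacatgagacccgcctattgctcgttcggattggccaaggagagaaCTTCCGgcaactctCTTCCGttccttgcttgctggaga
Sdhd: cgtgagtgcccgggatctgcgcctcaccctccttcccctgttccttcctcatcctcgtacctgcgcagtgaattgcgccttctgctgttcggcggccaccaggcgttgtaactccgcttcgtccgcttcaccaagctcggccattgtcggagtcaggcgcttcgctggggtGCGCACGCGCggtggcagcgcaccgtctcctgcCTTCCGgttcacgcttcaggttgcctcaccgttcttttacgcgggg
Sdha: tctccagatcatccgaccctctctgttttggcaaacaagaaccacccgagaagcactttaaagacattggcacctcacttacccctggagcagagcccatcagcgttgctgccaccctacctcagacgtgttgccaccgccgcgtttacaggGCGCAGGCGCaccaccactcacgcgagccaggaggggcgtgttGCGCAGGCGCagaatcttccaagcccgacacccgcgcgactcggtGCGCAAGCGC
Cox6a1: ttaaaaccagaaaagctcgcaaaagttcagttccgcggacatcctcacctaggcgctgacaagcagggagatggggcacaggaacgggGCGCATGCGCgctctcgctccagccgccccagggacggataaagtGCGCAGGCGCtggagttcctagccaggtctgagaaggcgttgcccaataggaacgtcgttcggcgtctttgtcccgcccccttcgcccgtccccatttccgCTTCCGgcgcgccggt
The Sdha window held 3 NRF1-type matches and no ETS-type match, Cox6a1 held 2 and 1, Sdhd 1 and 1, and Atp5h 1 and 2. Each printed window thus held an NRF1-type match, unlike most promoters of members. Among other members named below for small p, Ndufa5, Atp5o, Ndufs6 and Atp5g3 held an NRF1-type match, and Cox5b and Sdhb an ETS-type match only. Promoters of Uqcrfs1, Ndufc2, Cox7b and Ndufb2 held neither. A match describes these letters and is not evidence of binding. A head-to-head neighbour was a protein-coding gene on the other strand whose start lies upstream, within 1000 bases. Pairs that overlap at their starts were not counted. Such a neighbour was found for 19 of the 76 tested members (25%), against 11.1% of 10176 tested protein-coding genes. Sdha and Ccdc127 start 29 bases apart, Sdhd and Timm8b 98 bases apart, Atp5h and Kctd2 166 bases apart, and Ndufa7 and the ribosomal protein gene Rps28 10 bases apart.

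Per kilobase of transcript (the median length of the gene's annotated protein-coding transcripts of the basic set), members were abundant in microglia. The median over the 76 tested members was 131 CPM per kb, against 10.04 CPM per kb over 11983 tested genes with a length. Their transcripts were short, with a median of 746 bases against 2545 bases, so a subunit of moderate counts stands high on this scale. By complex, the median level was 141 CPM per kb for complex I, 62.9 for complex II, 189 for complex III, 170 for complex IV and 120 for complex V, each over tested members. The highest levels per kb belonged to Ndufa6 (566), Cox4i1 (546), Ndufa3 (517), Cox6a1 (486) and Ndufa7 (424), accessory subunits of complexes I and IV. This order depends on the length used. Per kb of all annotated exons of the gene joined, Ndufa6 stood at 120, Cox4i1 at 266, Ndufa3 at 219, Cox6a1 at 395 and Ndufa7 at 122. On that scale Ndufa1 also stood at 395.

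**Figure D1:**
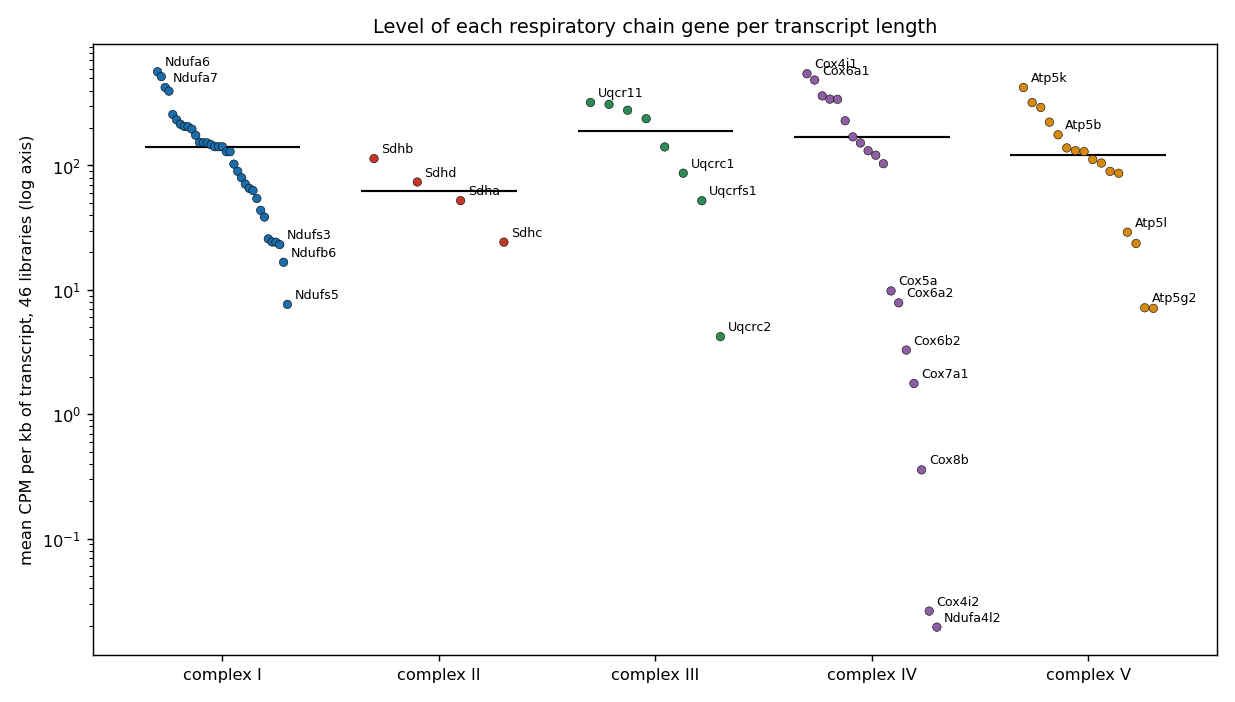
Mean level of each of the 81 members over 46 libraries in CPM per kb of transcript (log axis), ordered within its complex; the bar is the median of the complex's tested members. Most members lie between about the level of Ndufs3 (23.1) and that of Ndufa6 (566). The complex IV isoforms that did not pass the filter lie at the bottom, while the muscle form Cox6a2 (7.87) lies above Uqcrc2 (4.21).

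Complex IV isoforms separated sharply by level. Cox4i1, the ubiquitous form of subunit 4, stood at 546 CPM per kb and Cox4i2, known from lung and hypoxic cells, at 0.0262 CPM per kb (3 counts in all libraries together). Cox6a1 stood at 486 CPM per kb and its heart and muscle form Cox6a2 at 7.87, while Cox6b1 stood at 340 and the testis form Cox6b2 at 3.28. Cox7a2 (170 CPM per kb) and Cox7a2l, a supercomplex assembly factor (121), were far above the muscle form Cox7a1 (1.77), and Cox8a (152) was far above the muscle form Cox8b (0.358). Ndufa4, a complex IV subunit despite its name, stood at 362 CPM per kb and its paralog Ndufa4l2 at 0.0195. The 3 genes for the c subunit of the ATP synthase ring encode the same mature protein, and stood at 129 CPM per kb (Atp5g3), 23.6 (Atp5g1) and 7.18 (Atp5g2).

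Some obligatory subunits had few counts, which bears on what the table can show. Uqcrc2, a core protein of complex III, stood at 4.21 CPM per kb beside its partner Uqcrc1 at 86.7, Cox5a at 9.81 beside Cox5b at 103, and Ndufs5 at 7.65 and Ndufb6 at 16.7 beside a complex I median of 141. These genes share sequence with others. The share of 31-base words also found in annotated transcripts of other genes, on either strand, was 47.2% for Cox5a and 36.1% for Ndufb6. It was 36% for Ndufs5, 25.6% for Uqcrc2, 55.0% for Ndufs3, 59.4% for Atp5h and 85.4% for Atp5l. For Ndufb6 and Uqcrc2 the only such genes, Smim27 and Pdzd9, overlap the member's own exons on the other strand. Gm26631 overlaps Cox5a in the same way. Cox5a had 708 counts in all libraries and the symbol Gm26631, which shares its sequence, had 1240. Ndufb6 had 1056 and Smim27 3365, Atp5g2 had 509 and Gm10175 658, and Atp5h had 8330 and Gm10250 1224. For other members named here the sharing symbols held few counts. Ndufs5 had 515 and BC002163 78, and Uqcrc2 had 837 and Pdzd9 59. Ndufs3 had 2730 and Kbtbd4 113, and Atp5l had 1901 and Gm4853 35. The 17 tested members with at least 25% shared words had a median of 103 CPM per kb, against 142 for the other 59. How reads that match or overlap several genes were counted is not given, nor is the strand setting, so the levels of these members are uncertain. Whether that lowered them was not tested.

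Summed over each complex, the subunits differed little between diets and genotypes relative to the spread of libraries. Complex I averaged 4154 ± 482 CPM in AD and 3922 ± 372 CPM in WT mice on HAMSAB, 3668 ± 349 and 3998 ± 465 CPM in AD and WT mice on zero fiber, and 3783 ± 540 and 3778 ± 263 CPM in AD and WT mice on control (SD, n = 8 each, 6 for WT on zero fiber). The 6 ranges overlapped. Without the 2 libraries in doubt complex I averaged 3758 ± 346 CPM in AD mice on zero fiber. Complex II, the succinate dehydrogenase, averaged 452 ± 35.8 CPM in AD and 448 ± 86.9 CPM in WT mice on HAMSAB, 382 ± 41.9 and 417 ± 59.7 CPM in AD and WT mice on zero fiber, and 404 ± 47 and 415 ± 37.8 CPM in AD and WT mice on control. Without the 2 libraries in doubt it averaged 399 ± 29.9 CPM in AD mice on zero fiber. Complex III averaged 898 ± 108 CPM in AD mice on HAMSAB, against 749 ± 165 CPM in AD mice on zero fiber (805 ± 88.5 without the 2 libraries in doubt) and 822 ± 98.1 CPM in AD mice on control. Complex IV averaged 2067 ± 227 CPM in AD mice on HAMSAB, against 1803 ± 319 CPM on zero fiber (1907 ± 195 without the 2) and 1822 ± 246 CPM on control. Complex V averaged 2135 ± 190 CPM in AD mice on HAMSAB, against 1863 ± 362 CPM on zero fiber (2000 ± 153 without the 2) and 2007 ± 224 CPM on control. In AD mice each of the 5 complexes had its highest mean on HAMSAB, and the groups overlapped in every case. In WT mice complexes III, IV and V averaged 838 ± 91.4, 1896 ± 157 and 2029 ± 168 CPM on HAMSAB, 863 ± 97.6, 1923 ± 220 and 2049 ± 203 CPM on zero fiber, and 817 ± 57.6, 1871 ± 138 and 2022 ± 146 CPM on control.

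**Figure D2:**
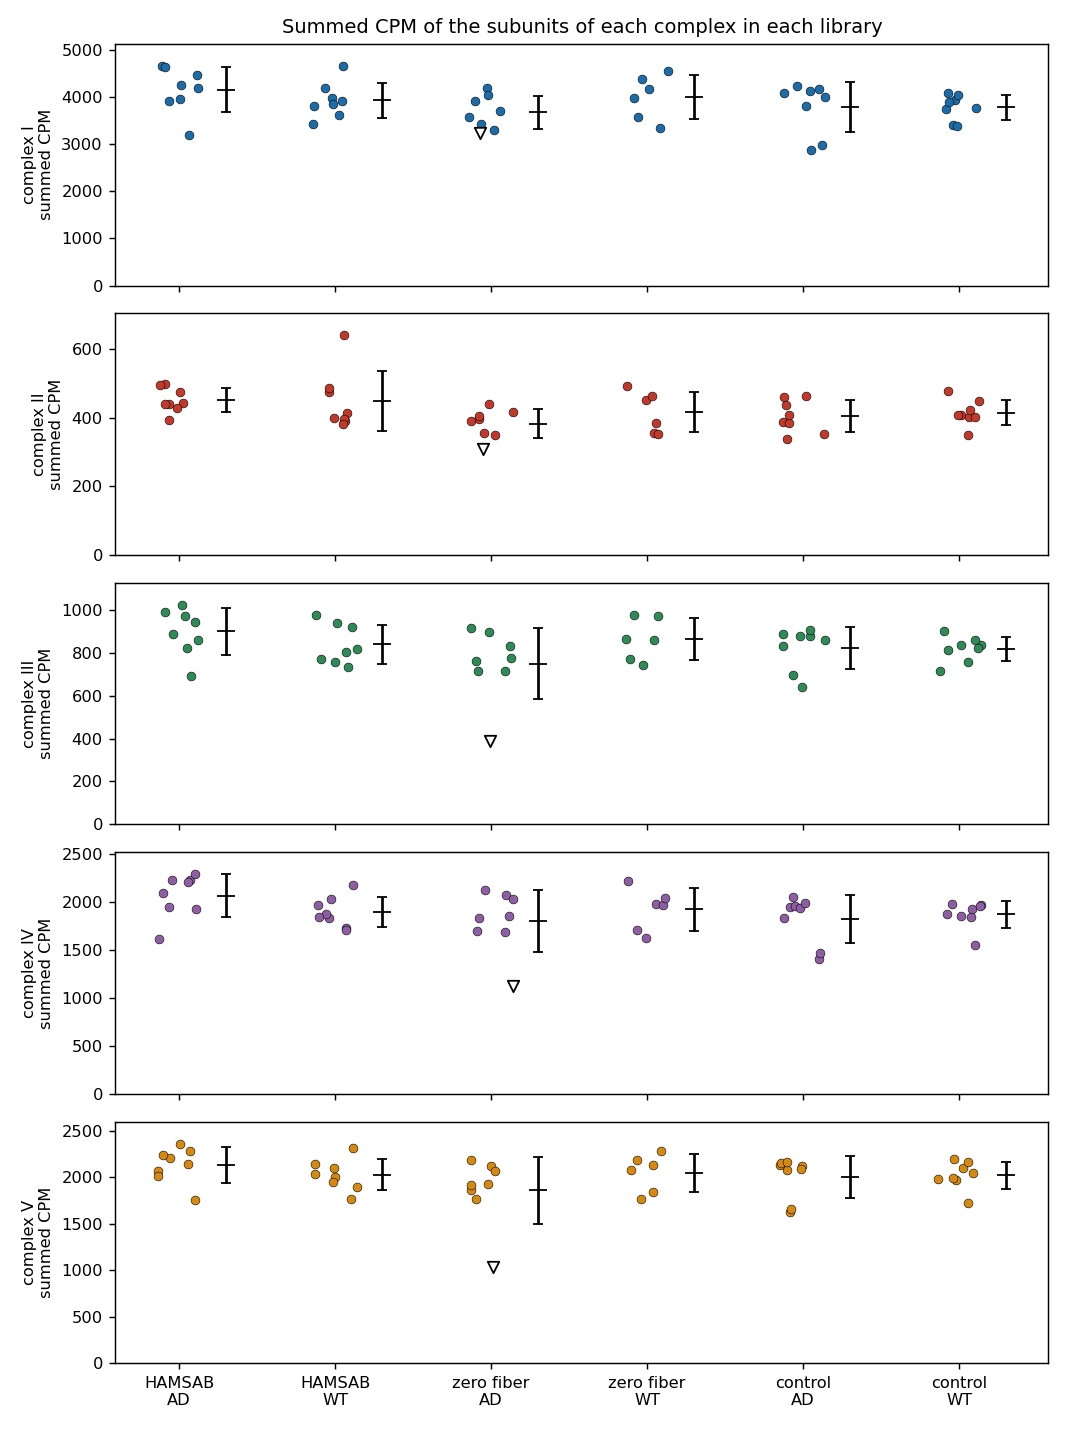
Summed CPM of the subunits of each complex (1 panel each, axes from 0) in every library of the 6 groups, with the mean and SD beside the points; open triangles mark zero_fiber_AD_M replicate 2, the library of 52114 counts. Groups overlap in all panels, and complex I averages 4154 CPM in HAMSAB AD, 3668 CPM in zero fiber AD and 3783 CPM in control AD libraries.

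No member was called in any of 12 comparisons by edgeR's quasi-likelihood test with Benjamini-Hochberg adjustment over 12121 genes at 0.05. DESeq2 called 1 member in 1 comparison, Uqcrfs1 in AD against WT on HAMSAB. The comparisons that follow give the members' counts at an unadjusted p under 0.05 beside the same over all genes. For the direction of the members, the background is that 47.8% to 51% of all tested genes were higher in each comparison. Comparisons that share a group of libraries are not independent of each other, and their values are set side by side only.

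In AD mice, HAMSAB against zero fiber gave a median log2 fold change of 0.12 over the 76 members, with 68 higher and 8 lower, while the median of all tested genes was 0.00. The medians were 0.12 for complex I (31 of 35 higher), 0.19 for complex II (4 of 4), 0.15 for complex III (7 of 8), 0.10 for complex IV (11 of 13) and 0.11 for complex V (15 of 16). edgeR called 0 members and DESeq2 0, where 0.239% and 0.462% of all genes were called. At an unadjusted p under 0.05 there were 13 members (17.1%), all higher on HAMSAB, against 10.6% of all genes. Sdha, the catalytic flavoprotein of complex II, ran from 145 to 180 CPM (median 162) in AD mice on HAMSAB and from 116 to 159 CPM (median 132) in AD mice on zero fiber. Most HAMSAB libraries stood above most zero fiber libraries, and the ranges overlapped. Its log2 fold change was 0.27 ± 0.09 (SE; edgeR adjusted p = 0.197). Atp5h, subunit d of the ATP synthase peripheral stalk, ran from 63.0 to 101 CPM (median 88.3) on HAMSAB and from 0 to 79.0 CPM (median 65.2) on zero fiber, the 0 being the library of lowest depth (0.39 ± 0.13, edgeR adjusted p = 0.229). Uqcrq, a small subunit of complex III, ran from 131 to 201 CPM (median 175) on HAMSAB and from 30.9 to 168 CPM (median 133) on zero fiber (0.32 ± 0.12, edgeR adjusted p = 0.293). Ndufa5, an accessory subunit of the peripheral arm of complex I, had a fold change of 0.29 ± 0.11 (edgeR adjusted p = 0.30). Without the 2 libraries in doubt the members' median was 0.11, with 68 higher and 8 lower. Markers of other cells differed here too. The only choroid plexus marker tested, Ttr, had a log2 fold change of 0.84 (edgeR adjusted p = 0.381), and the list summed to 84.0 to 287 CPM on HAMSAB, against 23.4 to 277 CPM on zero fiber. All 6 perivascular macrophage markers were lower on HAMSAB (median -0.76), 3 of them at an unadjusted p under 0.05 and 0 called. Their part in the members' values was not tested.

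HAMSAB against control in AD mice uses the same HAMSAB libraries. The members' median log2 fold change was 0.15, with 67 higher and 9 lower, and complexes I to V had medians of 0.15, 0.20, 0.12, 0.20 and 0.11. All 8 members of complex III and 12 of 13 of complex IV were higher on HAMSAB. edgeR and DESeq2 called 0 members, where 0.0743% and 0.767% of all genes were called, and 9 members had an unadjusted p under 0.05 (11.8%, 8 of them higher), fewer in proportion than all genes (15.3%). Atp5h ran from 63.0 to 101 CPM (median 88.3) on HAMSAB and from 48.5 to 77.6 CPM (median 71.3) on control (log2 fold change 0.38 ± 0.12, edgeR adjusted p = 0.128). Cox7b, a small subunit of complex IV, ran from 103 to 171 CPM (median 147) on HAMSAB and from 96.0 to 179 CPM (median 115) on control, where control_AD_F replicate 4 stood apart and the next library was at 126 CPM (0.30 ± 0.11, edgeR adjusted p = 0.182). Ndufc2, an accessory subunit of the membrane arm of complex I, ran from 94.0 to 151 CPM (median 132) on HAMSAB and from 73.0 to 136 CPM (median 112) on control (0.30 ± 0.11, edgeR adjusted p = 0.195). Atp5o, the oligomycin-sensitivity-conferring subunit, had a fold change of 0.21 ± 0.09 (edgeR adjusted p = 0.259). Each of these 4 genes overlapped between the diets. All 6 perivascular macrophage markers were lower on HAMSAB, with a median log2 fold change of -1.37 and all 6 at an unadjusted p under 0.05. edgeR called 0 of them and DESeq2 1, Pf4. They summed to 16.1 to 44.5 CPM (median 30.2) in AD mice on HAMSAB, against 19.8 to 154 CPM (median 57.8) in AD mice on control. Their part in the members' values was not tested.

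**Figure D3:**
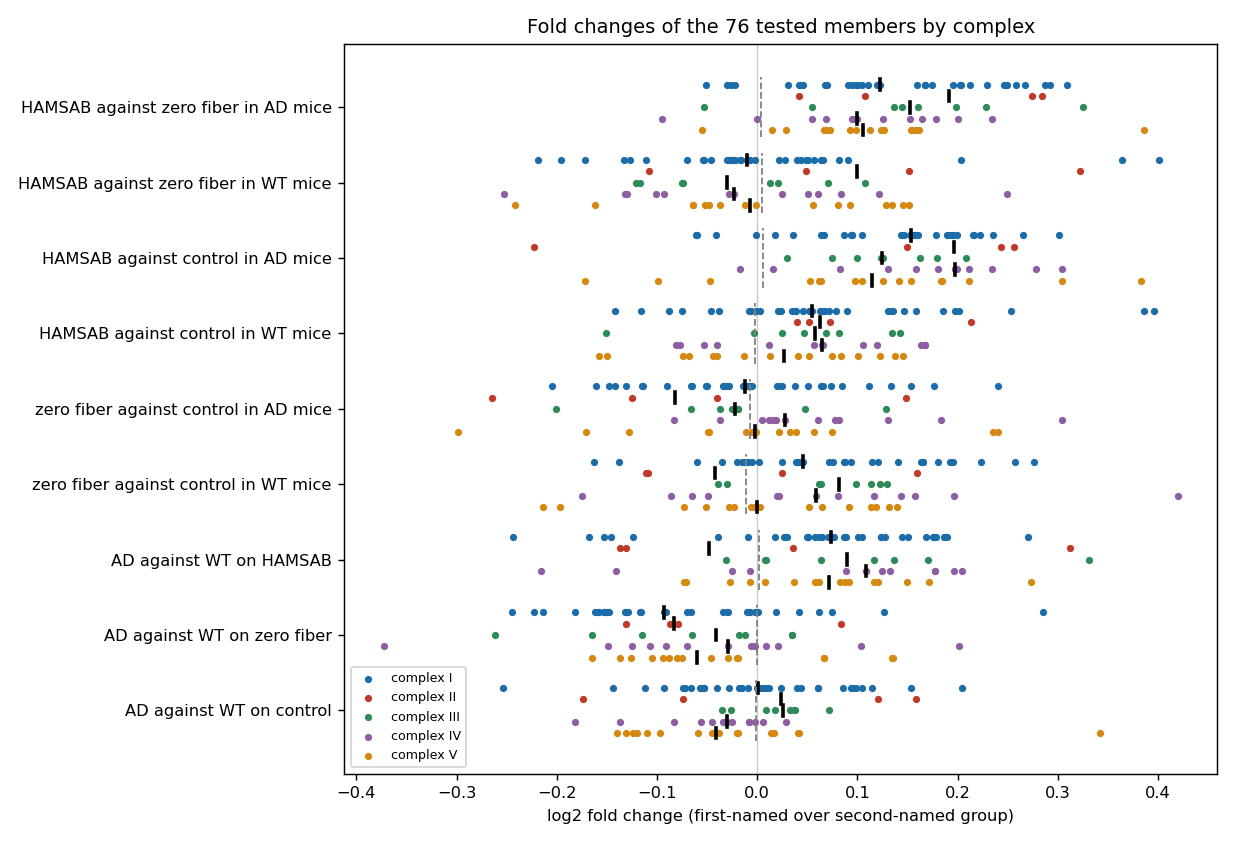
Log2 fold change of each of the 76 tested members (1 point a gene, coloured by complex) in the 9 comparisons of 2 groups; black bars are complex medians and the dashed line the median of all 12121 genes. In AD mice the members' medians are 0.12 for HAMSAB against zero fiber and 0.15 for HAMSAB against control, and no point passed the adjusted threshold.

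In WT mice the members did not lean one way between HAMSAB and zero fiber: the median was -0.01, with 34 higher and 42 lower. edgeR called 2.19% of all genes here and DESeq2 2.4%, with 0 members by either, and 3 members had an unadjusted p under 0.05 (3.95%) against 12% of all genes. Ndufs1, the largest core subunit of complex I, ran from 41.4 to 134 CPM (median 75.6) on HAMSAB and from 49.4 to 77.5 CPM (median 56.9) on zero fiber (0.36 ± 0.14, edgeR adjusted p = 0.228). Sdhb, the iron-sulfur subunit of complex II, ran from 99.5 to 327 CPM (median 127) on HAMSAB and from 100.3 to 163 CPM (median 121) on zero fiber (0.32 ± 0.15, edgeR adjusted p = 0.384). Both highest values came from HAMSAB_WT_F replicate 3, and without that library the fold changes were 0.22 for Ndufs1 and 0.11 for Sdhb. Cox5b, a regulatory subunit of complex IV, had a fold change of 0.25 ± 0.11 and Ndufs6, a complex I subunit, of -0.22 ± 0.11 (edgeR adjusted p = 0.35 and 0.42). For HAMSAB against control in WT mice the median was 0.05, with 54 higher and 22 lower. Calls covered 0.281% of all genes by edgeR and 0.635% by DESeq2, and 0 members by either, and 1 member (1.32%) against 13.3% of all genes had an unadjusted p under 0.05. That member was Ndufb2, an accessory subunit of complex I, which ran from 54.2 to 81.5 CPM (median 64.0) on HAMSAB and from 46.1 to 59.1 CPM (median 54.3) on control, overlapping ranges (0.25 ± 0.10, edgeR adjusted p = 0.225).

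Zero fiber against control gave a members' median of -0.01 in AD mice (35 higher and 41 lower) and 0.05 in WT mice (49 and 27). In AD mice edgeR called 0.0578% and DESeq2 0.198% of all genes, and in WT mice 0.00825% and 0.0743%, with 0 members in each. An unadjusted p under 0.05 was reached by 2 members in AD mice (2.63%, against 10.8% of all genes) and 3 in WT mice (3.95%, against 7.58%). Those of smallest p were Cox7b in AD mice, at 77.3 to 165 CPM (median 147) on zero fiber against 96.0 to 179 CPM (median 115) on control (0.30 ± 0.12, edgeR adjusted p = 0.301), and Ndufb2 in WT mice, at 56.6 to 79.6 CPM (median 59.5) against 46.1 to 59.1 CPM (0.28 ± 0.11, edgeR adjusted p = 0.511). Sdhc, a membrane anchor of complex II, had a fold change of -0.26 ± 0.12 in AD mice (edgeR adjusted p = 0.386).

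Between genotypes on HAMSAB, the members' median for AD against WT was 0.08, with 58 higher and 18 lower, and the median of complex II was -0.05 (0.06 without HAMSAB_WT_F replicate 3), against 0.07 to 0.11 for the other complexes. edgeR called 1.68% of all genes and 0 members; DESeq2 called 2.26% of all genes and 1 member, and 6 members, all higher in AD, had an unadjusted p under 0.05 (7.89%, against 12% of all genes). The member nearest the threshold was Uqcrfs1, the Rieske iron-sulfur protein that passes electrons within complex III (GRCm38 chromosome 13, 30540308 to 30545362, minus strand; none of its 31-base words occurs elsewhere). Its level was 72.0 CPM at the lowest, 81.5 at the median and 90.3 at the highest in AD mice on HAMSAB, against 55.7, 63.7 and 71.6 CPM in WT mice on HAMSAB. Every AD library stood above every WT library on this diet, by a narrow margin. On zero fiber it ran from 46.4 to 85.4 CPM (median 61.7) in AD and from 55.6 to 88.1 CPM (median 69.6) in WT mice, and on control from 62.0 to 87.7 CPM (median 70.1) in AD and from 56.8 to 88.3 CPM (median 70.7) in WT mice, so the genotypes overlapped on both other diets. The log2 fold change on HAMSAB was 0.33 ± 0.09 (95% interval 0.14 to 0.52), with an adjusted p of 0.0549 by edgeR and 0.0486 by DESeq2. The edgeR value was 0.0332 with only the libraries compared in the fit and 0.229 with no low-count filter, and leaving out single libraries gave 0.0371 to 0.148, under 0.05 in 8 of the 46 fits. Sdhd, the other membrane anchor of complex II, ran from 81.5 to 124 CPM (median 109) in AD and from 62.8 to 102 CPM (median 86.7) in WT mice on HAMSAB (0.31 ± 0.11, edgeR adjusted p = 0.168), while Ndufc2 and Atp5h each had a fold change of 0.27. The summed microglial markers had a median of 36312 CPM in AD and 32727 CPM in WT mice on HAMSAB. The choroid plexus markers summed to 84.0 to 287 CPM in AD and 20.5 to 174 CPM in WT mice on HAMSAB (Ttr 0.98, edgeR adjusted p = 0.172), and all 6 perivascular macrophage markers were lower in AD (median -0.61, 1 at an unadjusted p under 0.05 and 0 called). Their part in the members' values was not tested.

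On the other diets no member was called between AD and WT mice. On control the median was -0.01 (33 higher and 43 lower in AD), with 0% of all genes called by edgeR and 0% by DESeq2, and 1 member (1.32%, against 5.4% of all genes) at an unadjusted p under 0.05. That was Atp5g3, at 79.6 to 241 CPM (median 93.8) in AD and 72.0 to 106 CPM (median 85.3) in WT mice (0.34 ± 0.14, edgeR adjusted p = 0.908), and without control_AD_F replicate 4 the fold change was 0.13. On zero fiber the median was -0.07 (18 higher and 58 lower in AD; -0.05, with 21 and 55, without the 2 libraries in doubt). edgeR called 0.00825% and DESeq2 0.0248% of all genes, with 0 members, and Ndufa5 alone had an unadjusted p under 0.05 (1.32%, against 4.7% of all genes; -0.24 ± 0.12, edgeR adjusted p = 1.0).

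Whether a diet difference differed between AD and WT mice was tested directly. For HAMSAB against zero fiber, the difference (AD minus WT) had a median of 0.14 over members, with 60 above and 16 below 0, and 7 members (9.21%) had an unadjusted p under 0.05 against 9.46% of all genes. edgeR called 0 members and DESeq2 0, where 1.08% and 1.37% of all genes were called. The smallest p belonged to Uqcrfs1 (0.35 ± 0.14, edgeR adjusted p = 0.366), followed by Atp5h (0.44 ± 0.19), Sdhd (0.39 ± 0.17) and Uqcrq (0.40 ± 0.17). For HAMSAB against control the median difference was 0.09 (59 above and 17 below 0), with 3 members (3.95%) against 5.53% of all genes at an unadjusted p under 0.05, and for zero fiber against control it was -0.05 (23 and 53), with 1 member (1.32%) against 6.17%. edgeR and DESeq2 each called 0% of all genes in these last 2 tests. The higher medians of AD mice on HAMSAB are thus not shown to differ from those of WT mice for any single member.

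Single libraries bore on these small medians. With 1 library left out at a time, the members' median for HAMSAB against zero fiber in AD mice ran from 0.09 (without HAMSAB_AD_M replicate 1) to 0.16 (without zero_fiber_AD_F replicate 4). For HAMSAB against control in AD mice it ran from 0.09 (without control_AD_M replicate 1) to 0.18 (without control_AD_M replicate 2). These medians stayed above 0, while some others came near 0 or crossed it. For HAMSAB against zero fiber in WT mice the median was 0.05 without zero_fiber_WT_M replicate 1 and -0.06 without zero_fiber_WT_M replicate 2. Without zero_fiber_WT_M replicate 1 it was also 0.01 for zero fiber against control in WT mice, -0.02 for AD against WT on zero fiber, 0.09 for the AD minus WT difference in HAMSAB against zero fiber and -0.02 for that in zero fiber against control. For HAMSAB against control in WT mice it was 0.02 without control_WT_F replicate 1. For AD against WT it ran from 0.05 (without HAMSAB_AD_M replicate 1) to 0.12 (without HAMSAB_AD_M replicate 2) on HAMSAB and from -0.05 (without control_WT_F replicate 1) to 0.04 (without control_AD_M replicate 1) on control. The AD minus WT difference in HAMSAB against control had a median of 0.02 without control_AD_F replicate 2 and 0.03 with the set of title numbers described below as a term.

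The data bounded the size of change for most members. The 95% interval of a member's log2 fold change had a median half-width of 0.222 to 0.256 in the 9 comparisons of 2 groups, and for 68 to 71 of the 76 members it lay wholly within a 1.5-fold change in either direction. Members varied less between libraries of a group than other genes: the median biological coefficient of variation was 0.143, against 0.171 over all tested genes, at a median of 110 and 25.1 CPM.

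Transcript length moved with the members' level. For each library, the slope of log2 expression (relative to the gene's mean) on log2 transcript length was taken over tested genes that are not members, so that a negative slope means that short transcripts stood relatively high. The slope averaged -0.037 ± 0.039 in AD mice on HAMSAB, 0.012 ± 0.051 in AD mice on zero fiber (-0.005 without the 2 libraries in doubt) and 0.021 ± 0.033 in AD mice on control (SD, n = 8 each). Over the 46 libraries the members' mean log2 CPM had a Pearson r of -0.81 and a Spearman rho of -0.80 with that slope, and r was -0.83 without the 2 libraries farthest from the median slope. Within the libraries with title numbers below 2900 r was -0.85 (n = 23), and within those from 2900 upward -0.73 (n = 22). The mean log2 CPM of cytosolic ribosomal proteins, read as another set of short transcripts, followed the slope less. Its r was -0.43 over the 46 libraries and -0.20 without the 2 libraries in doubt, where the members' r was -0.83. Within the sets of title numbers it was -0.73 below 2900 and 0.29 from 2900 upward. Levels and slope come from the same library and scaling, so these are descriptions.

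**Figure D4:**
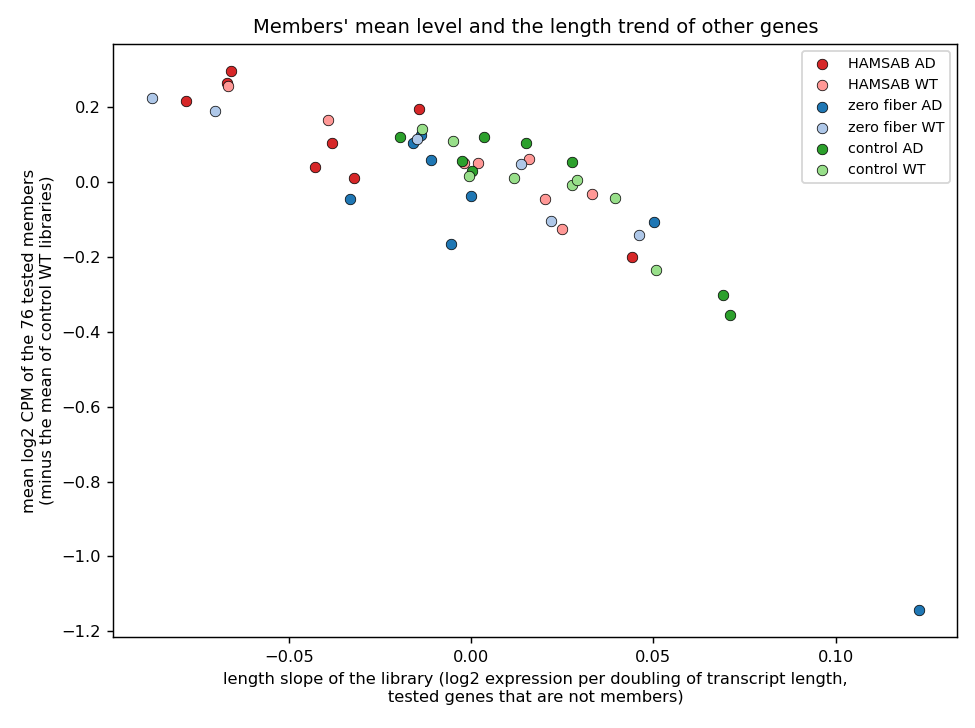
Mean log2 CPM of the 76 tested members in each of the 46 libraries (relative to the mean of control WT libraries) against the library's length slope over other genes, coloured by group. Libraries with a more negative slope have higher member levels (r = -0.81), most HAMSAB AD libraries lie at the left, and the lowest point, at -1.14, is zero_fiber_AD_M replicate 2.

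Other genes of the same length had medians on the same side of 0 as the members' in both HAMSAB comparisons in AD mice, and nearer to 0, for transcripts under 2 kb. For HAMSAB against zero fiber in AD mice, the 50 members under 1 kb had a median log2 fold change of 0.15 (90.0% higher) and the 1466 other genes under 1 kb 0.06 (60.8% higher), while the 2725 genes over 4 kb, a bin with no member, had -0.08. For HAMSAB against control in AD mice the same bins gave 0.15 for members, 0.11 for other genes under 1 kb and -0.08 for genes over 4 kb, and from 1 to 2 kb 0.15 for 20 members and 0.06 for 2854 other genes. With each library's length trend removed before the fit, the members' median was 0.04 for HAMSAB against zero fiber in AD mice (53 higher and 23 lower), 0.06 for HAMSAB against control in AD mice (56 and 20) and 0.04 for AD against WT on HAMSAB (48 and 28). edgeR called 0 members there too. What sets a library's slope was not tested.

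**Figure D5:**
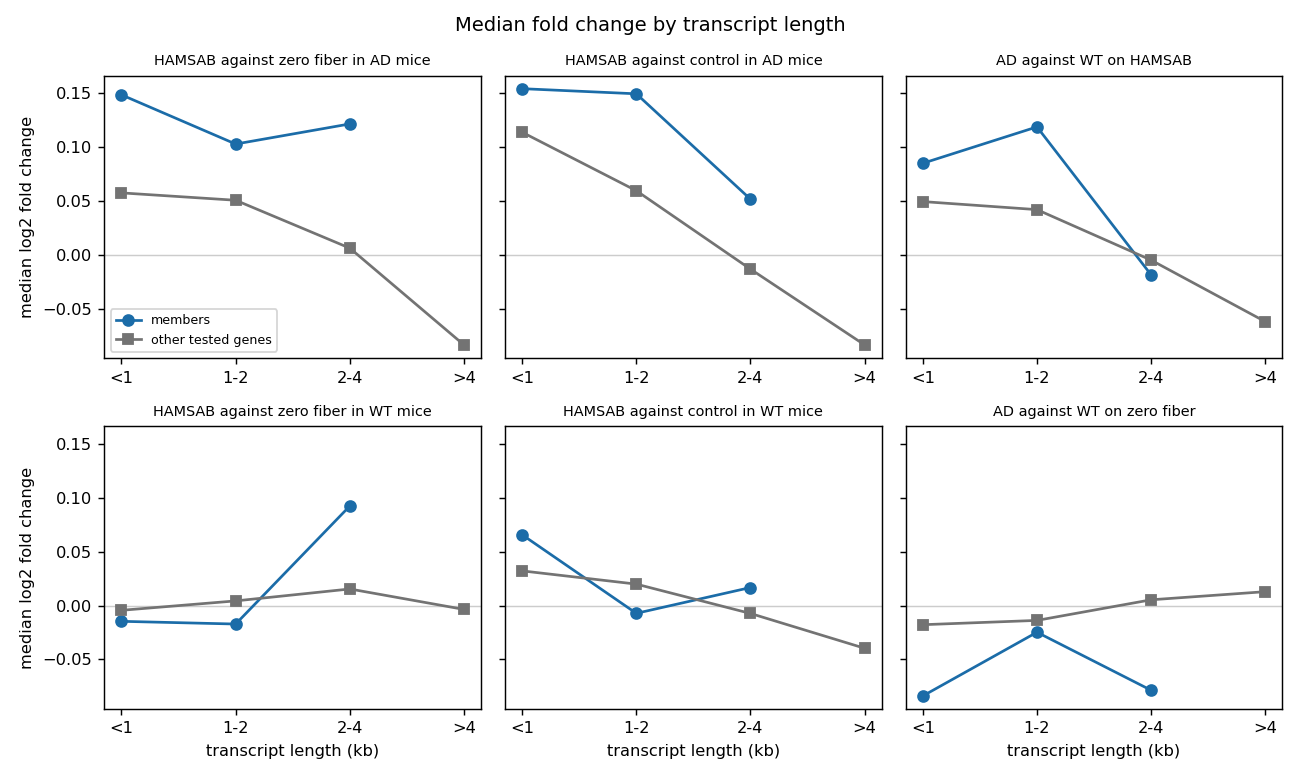
Median log2 fold change of members (circles) and of other tested genes (squares) by transcript length in 6 comparisons, with the same axis in each panel. In both comparisons of HAMSAB in AD mice the other genes run from above 0 under 1 kb to -0.08 over 4 kb, and members lie above them; the 2 to 4 kb bin holds 6 members only.

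Library titles carry numbers, below 2900 in 23 libraries, from 2900 upward in 22 and only zeros in 1, and the labels do not say what the numbers mean. The members' mean log2 CPM was lower in the first set, and control WT has only 1 library in it. The differences that follow are of plain means and, unlike the fit, do not balance the sexes. HAMSAB libraries of AD mice were mostly male below 2900 and all female from 2900 upward. Within the sets, HAMSAB minus zero fiber in AD mice was 0.34 (5 against 4 libraries) and 0.21 (2 against 4), beside 0.27 pooled and 0.12 without the 2 libraries in doubt. The 0.34 rests on zero_fiber_AD_M replicate 2: the first set gave 0.06 (5 against 3) without that library and 0.04 (5 against 2) without both libraries in doubt, values chosen after seeing the data. HAMSAB minus control in AD mice was 0.18 (5 against 4) and 0.12 (2 against 4), beside 0.14 pooled. In WT mice, HAMSAB minus control was 0.23 (5 against 1) and 0.10 (3 against 7), beside 0.05 pooled, and zero fiber minus control was 0.22 (4 against 1) and 0.17 (2 against 7), beside 0.06 pooled. With the set as a term of the fit, the members' median was 0.13 for HAMSAB against control (67 higher and 9 lower) and 0.15 for zero fiber against control (68 and 8) in WT mice, and edgeR called 0 members.

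Members varied together from library to library within groups. Over 45 libraries (the shallowest left out) and with group means removed, the correlation of a member with the mean of the others was highest for Atp5k (0.87), Ndufa4 (0.87), Ndufb7 (0.86), Cox6a1 (0.86) and Atp5j (0.85). It was lowest for Atp5l (-0.08), Atp5g2 (0.06), Ndufs1 (0.16), Sdhc (0.20) and Uqcrc2 (0.26). Pairs within a complex had a median r of 0.46 (827 pairs) and pairs across complexes 0.42 (2023 pairs). All pairs share the libraries and their scaling.

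Genes that build or feed the chain were read beside the members. Of 43 tested assembly factors, 36 were higher on HAMSAB than on control in AD mice (median 0.11) and 33 on HAMSAB than on zero fiber (0.13), with none called there by edgeR or DESeq2 (6 and 4 at an unadjusted p under 0.05). Sco1, a copper chaperone of complex IV assembly, was called by edgeR in 3 comparisons. It ran from 26.1 to 61.0 CPM (median 48.5) in WT mice on HAMSAB, against 14.9 to 24.3 CPM (median 18) in WT mice on zero fiber, with no overlap, and rose on HAMSAB by a log2 fold change of 1.35 ± 0.22 (edgeR adjusted p = 0.000555; 0.0646 without zero_fiber_WT_M replicate 2, when 1 gene was called over all genes in place of 265). In AD mice on HAMSAB it ran from 14 to 29.2 CPM (median 22.3), against 26.1 to 61.0 CPM in WT mice on HAMSAB (-1.05 ± 0.18, edgeR adjusted p = 0.00145), and the diet difference itself differed between genotypes (-1.73 ± 0.29, edgeR adjusted p = 0.00132). Timmdc1, a complex I assembly factor, rose on HAMSAB against zero fiber in WT mice (1.11 ± 0.27, edgeR adjusted p = 0.0196, but 0.203 without zero_fiber_WT_M replicate 1).

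Subunit mRNAs of the mitochondrial genome were set beside the nuclear members, and whether they follow them was not tested. Of 13, mt-Nd4l, mt-Atp6 and mt-Atp8 are listed at 0 and 7 passed the filter. Summed over all of the 13 with any count, tested or not, the level averaged 7963 ± 2825 CPM in AD and 7984 ± 1459 CPM in WT mice on HAMSAB, 7542 ± 2109 and 6638 ± 1357 CPM in AD and WT mice on zero fiber, and 6026 ± 809 and 5876 ± 910 CPM in AD and WT mice on control (SD, n = 8 each, 6 for WT on zero fiber). Without the 2 libraries in doubt it averaged 6889 ± 1571 CPM in AD mice on zero fiber. In AD mice this mean, like those of the nuclear complexes, was highest on HAMSAB. It includes HAMSAB_AD_F replicate 2 at 14186 CPM, where the next HAMSAB library of AD mice stood at 9426 CPM. By group median, HAMSAB (7254 CPM) and zero fiber (7100 CPM) lay close together in AD mice, and control was lower (5867 CPM). Without the 2 libraries in doubt the zero fiber median was 6659 CPM. Of the tested mRNAs: all 7 were higher on HAMSAB than on control in WT mice (median 0.37), where the nuclear members' median was 0.05, and in AD mice 3 were higher and 4 lower (0.00), where the nuclear median was 0.15. edgeR called 0 of the 7 in the 12 comparisons, with up to 3 at an unadjusted p under 0.05, and DESeq2 called mt-Cytb for HAMSAB against control in WT mice. Of 13 genes of the tricarboxylic acid cycle and 11 tested regulators of mitochondrial gene expression, edgeR and DESeq2 called 0 in each comparison (up to 2 and 3 at an unadjusted p under 0.05). The 6 tested subunits or carriers that the name pattern misses, cytochrome c among them, were all higher on HAMSAB than on zero fiber (median 0.16) and than on control (0.14) in AD mice, with 0 called by either tool and at most 1 at an unadjusted p under 0.05.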

How the data were processed

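RNA was extracted from microglia with an RNeasy Micro kit on a QIAcube, per the labels' protocols. The counts were deposited by the authors as a single unnormalized table of 54134 symbols by 46 libraries. Per the submitters' processing notes, the tools and build were STAR 2.5.2b, featureCounts 1.5.2 and GRCm38 (mm10). Not given in the sources used here are the strand setting, the annotation release and the rule for multi-mapping reads, so near-identical copies and overlapping antisense genes may have been split or merged. The members and gene lists were chosen with earlier results of these data known.

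All libraries entered 1 edgeR 4.0.16 fit (R 4.3.3; filterByExpr, TMM, quasi-likelihood test) with 12 means for diet, genotype and sex, and contrasts averaged the sexes equally. Of the genes, 12121 were tested, and those with a Benjamini-Hochberg adjusted p under 0.05 were called. CPM are counts scaled by TMM-corrected library size, and mean log2 CPM used a prior count of 2. Fold changes are log2 with the SE of the fit. Depth, at 52114 to 6950429 counts, limits precision by counting error beside the spread between libraries. No libraries were identical (between replicates, chi-square over its degrees of freedom was at least 1.62). Transcript lengths are medians from GENCODE M21 (GRCm38), found for 11983 tested genes. They were taken over basic protein-coding transcripts where a gene has them. The members named were, in each comparison, the 4 of smallest p, with fixed anchors described by level, the extremes per length, isoform groups and called genes of the other lists. The edgeR test was also run on counts simulated with the fit's own spread. These held no length trend and no library set apart, so that check cannot cover such effects.

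Alternatives were DESeq2 1.42.0 size factors and test, no low-count filter, each library's length trend removed (lowess span 0.3), a term for the title-number set (split at 2900), only the libraries compared, each library left out in turn, and leaving out the 2 libraries in doubt. The last of these combined with the length correction was added after seeing the data. Length trends, complexes and lists were described without tests.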

Additional observations from a re-analysis of the deposited data

Results flagged for a closer look

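Of 150 combinations of a group and a measure that were screened, 20 had 1 library set apart from the rest of its group by more than Dixon's 95% critical value, where chance gives about 1 in 20. In zero_fiber_AD_M replicate 2, the library of 52114 counts, the members' mean log2 CPM was -1.14 relative to control WT, and the sums of complexes III, IV and V were 386, 1128 and 1035 CPM. In the same library Ndufv1 and Atp5h were at 0 CPM, Uqcrq at 30.9, Uqcrc1 at 61.8, Atp5a1 at 92.7 and Atp5b at 155 CPM.

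HAMSAB_WT_F replicate 3 had the highest Sdhb (327 CPM, the next library at 164) and Ndufs1 (134 CPM, the next at 79.4) of its group, and a complex II sum of 640 CPM. Ndufs1 was also high in zero_fiber_WT_F replicate 3, at 77.5 CPM. The complex IV sum was low in control_WT_F replicate 1, at 1553 CPM. Cox7b stood at 179 CPM in control_AD_F replicate 4 and Atp5b at 417 CPM in zero_fiber_WT_F replicate 4. In HAMSAB_AD_M replicate 2 both Ndufa1 (138 CPM) and Atp5e (88.7 CPM) were lowest of their group, and Atp5e was low in zero_fiber_WT_F replicate 1, at 101 CPM. The causes were not tested.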

How the results depend on the processing

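The number of members called was 0 in all 12 comparisons, and 94 of 96 alternatives gave 0 too. The exceptions were AD against WT on HAMSAB with the DESeq2 test and with only the libraries compared, where 1 member (Uqcrfs1) was called; the cause was not tested. Leaving out single libraries gave 0 to 1 members there and 0 in the other comparisons. Over the other settings the members' median ran from 0.04 to 0.16 for HAMSAB against zero fiber in AD mice and from 0.06 to 0.17 for HAMSAB against control in AD mice, lowest with the length trend removed, and no named fold change reversed. Counts of called genes over the whole table were less stable: 36 of 96 alternatives moved them by over 1.5 times. The highest counts came with no low-count filter, where all 31448 symbols with at least 1 count were tested in place of 12121. That setting gave 204 in place of 29 for HAMSAB against zero fiber in AD mice and 505 in place of 265 in WT mice. For AD against WT on HAMSAB it gave 464 in place of 204. For HAMSAB against control it gave 357 in place of 9 in AD mice and 433 in place of 34 in WT mice, where the title-number term gave 1. No paired analysis was possible because replicate numbers were given in accession order and pair no libraries. Depth limits members of few counts, such as Uqcrc2 and Cox5a. The shallowest library holds few counts but weighs as much as any other in the group means and complex sums. The members' mean log2 CPM in AD mice on zero fiber, relative to control WT, was -0.15. Without the 2 libraries in doubt it was -0.005.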
